A study of Mus musculus with 3 samples.

Results

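Macrophages in the collagen-rich stroma of 3 mouse mammary tumours were set against macrophages in the tumour nests of the same sections. A cell counted as a macrophage when it held at least 2 transcripts of Adgre1 and Cx3cr1 together and at least 20 panel transcripts. Adgre1 encodes the F4/80 surface antigen of mouse macrophages, and Cx3cr1 encodes the fractalkine receptor of monocytes and macrophages. Each section was divided into squares of 100 µm with at least 10 cells. A square was stroma where Col1a1, the type I collagen gene of fibroblasts, made up at least 10% of its panel transcripts, and nest where it made up at most 2%. This gave 20235 gated cells, 5745 in stroma and 14490 in nests, of 50053 gated cells and 1760476 cells with at least 20 transcripts. Col1a1, Adgre1 and Cx3cr1 chose the cells and arms, so their levels are given as a description and were left out of every test.

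The sections were formalin-fixed and paraffin-embedded tumours labelled MMTV-PyMT WT, 1 section from each of 3 distinct tumours, imaged with the MERSCOPE platform. MMTV-PyMT mice express the polyoma virus middle T oncogene from a mammary promoter and develop mammary carcinomas. There was 1 group, with no treatment and no control, and the sources used here do not state the meaning of WT, the age of the mice or whether each tumour came from its own animal. MERSCOPE detects single RNA molecules in place by repeated rounds of fluorescent probe imaging and assigns them to segmented cells. The tables hold 258 genes and 27 blank codes, barcodes assigned to no gene that show how often decoding goes wrong. Both arms of a tumour lie in the same section, and tests compared arms over the 3 tumours.

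Tissue macrophages differ in origin and place. Resident-type cells sit in connective tissue and along vessels and carry the scavenger receptor gene Cd163, the folate receptor gene Folr2, the hyaluronan receptor gene Lyve1 and the chemokine gene Ccl8. Others arise from blood monocytes, which enter through the chemokine receptor Ccr2, and many in tumours express class II antigen-presentation genes or the arginase gene Arg1. In a thin section a segmented cell also takes up transcripts of the cells it touches. A macrophage among fibroblasts can therefore carry fibroblast transcripts, and one among carcinoma cells epithelial ones. The neighbours, with which the gated cells are compared, are cells without an Adgre1 or Cx3cr1 transcript whose centre lay within 25 µm of a gated cell in the same arm.

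**Figure D1:**
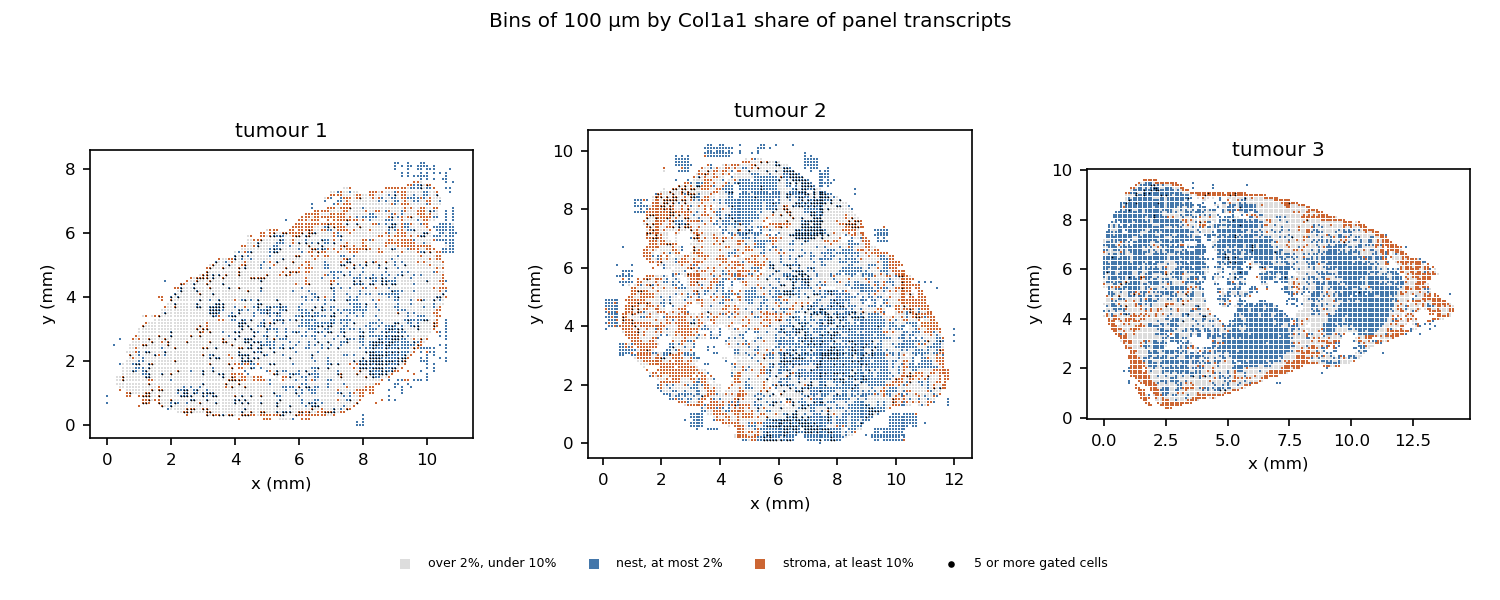
Squares of 100 µm with at least 10 cells in the 3 sections, by x and y position in mm. Blue squares are nests, orange squares stroma, grey squares lie between the thresholds, and black dots mark stroma or nest squares with 5 or more gated cells. Stroma lay along the edge and in bands inside, and blue squares also lay beyond the outline of tumours 1 and 2.

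Tumours 1, 2 and 3 had 723, 1572 and 1107 stroma squares and 1283, 3087 and 3916 nest squares, as the map of squares shows. The gate found 2419, 2616 and 710 cells in stroma and 4981, 7015 and 2494 in nests. Their summed panel transcripts ran from 116565 (stroma of tumour 3) to 1363514 (nests of tumour 2). Gated cells had medians of 145, 130 and 124.5 transcripts in stroma against 111, 163 and 142.5 in nests, and were larger than their neighbours (median volumes of 810, 870 and 928 µm3 against 576, 635 and 653 in stroma). Blank codes took 0.532% to 0.594% of the transcripts of gated cells in nests and 0.575% to 0.876% in stroma. Any pair of blank codes used as a gate would have taken a median of 0.133% to 0.168% of cells, and at most 0.777%, 0.905% and 0.549%, against 4.49%, 3.5% and 0.875% for the real gate in tumours 1, 2 and 3. The gate of tumour 3 therefore lay closest to its highest blank pair. No cell identifier occurred in more than 1 section (0 shared).

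Markers that the gate did not use set the gated cells apart from their neighbours. H2-Aa, a class II gene of antigen-presenting cells, had a level 6.72 ± 1.27 times that of the neighbours in nests and 5.96 ± 0.91 times in stroma (SD, n = 3). Spi1, the PU.1 factor of myeloid cells, had 6.06 ± 1.87 and 4.86 ± 0.55 times the neighbours' level. The Fc receptor chain gene Fcer1g, the myeloid regulator Irf8 and the activation marker Cd83 stood between 2.68 and 3.26 times in both arms. The lipopolysaccharide co-receptor gene Cd14 (1.11 ± 0.04 and 0.943 ± 0.143) and Arg1 (1.01 ± 0.13 in nests) were near the neighbours' level. On an added list of 10 other myeloid genes, completed after the panel was seen, 5 were at least 2-fold above the neighbours in nests and 7 in stroma. The 13 epithelial genes were also measured as a check of the nests: their summed level in neighbours was 118 to 135 per 1000 in nests and 94.1 to 111 in stroma. The stroma squares thus held many epithelial transcripts. Gated cells held them too, at 113 to 128 per 1000 in nests and 70.8 to 84.4 in stroma. The word macrophage below thus stands for a cell that passed the gate, whether or not it also held epithelial transcripts. The 8 fibroblast genes tested summed to 13.5 to 23.1 per 1000 in nest neighbours and 76.5 to 91.4 in stroma neighbours.

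**Figure D2:**
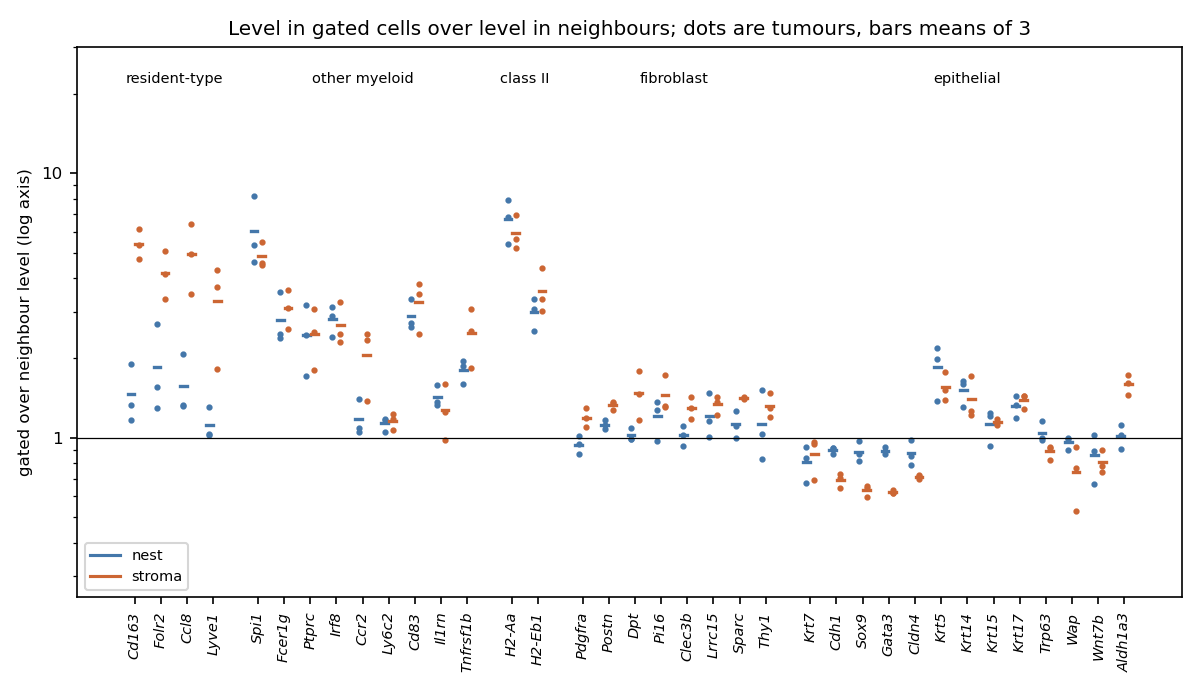
Level of each gene in gated cells divided by its level in their neighbours, on a log axis, in nests (blue) and stroma (orange); dots are tumours and bars the means of 3. Spi1 and the class II genes stood well above 1 in both arms, resident-type genes above 3 only among the stroma means, and fibroblast and epithelial genes near 1.

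All 4 resident-type genes were higher in the stromal macrophages, and all 4 were also higher in stromal neighbours, with a smaller median log2 difference (2.59 against 1.0). Cd163 had the largest difference of all tested genes in gated cells. Levels here and below are counts per 1000 panel transcripts, without Adgre1, Cx3cr1 and Col1a1. Cd163, a receptor for haptoglobin-bound haemoglobin, stood at 4.22, 4.65 and 3.75 in stromal and 0.181, 0.108 and 0.175 in nest macrophages of tumours 1, 2 and 3. The arms did not overlap, and the stromal levels lay within a narrow range. Its log2 difference was 4.61 ± 0.32 (SE; edgeR adjusted p = 4.15e-09, n = 3 tumours). Neighbours carried Cd163 too, at 0.778 ± 0.018 in stroma and 0.109 ± 0.036 in nests (SD, n = 3; log2 difference 2.67 ± 0.22 SE). How much of that came from macrophages without a gate transcript was not tested.

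Ccl8, a chemokine for monocytes and other leukocytes, had levels of 4.26, 4.50 and 1.84 in stromal and 0.424, 0.293 and 0.520 in nest macrophages. Tumour 3 had the smallest gap, and the arms still did not overlap. The log2 difference was 2.88 ± 0.37 (edgeR adjusted p = 3.87e-06), against 1.17 ± 0.35 in neighbours. Lyve1 had levels of 1.37, 0.673 and 1.07 in stroma and 0.170, 0.184 and 0.175 in nests (2.30 ± 0.28, edgeR adjusted p = 1.97e-06), and neighbours gave 0.82 ± 0.21. In nests its ratio to the neighbours was 1.12 ± 0.16, so gated nest cells hardly exceeded the cells around them. Folr2 had levels of 2.47, 1.51 and 2.25 in stroma and 0.761, 0.345 and 0.410 in nests (1.9 ± 0.27, edgeR adjusted p = 1.25e-05), and neighbours gave 0.64 ± 0.14.

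Of 255 genes tested in the gated cells, 74 were higher in stroma (29.0%) and 53 lower (20.8%) at an edgeR adjusted p under 0.05. The 4 of 4 resident-type genes had a median log2 difference of 2.59, against -0.02 over all 255 genes. Only Cd163 of them exceeded the highest blank code in an arm of all 3 tumours. In stroma Folr2 and Ccl8 exceeded it in 2 tumours each and Lyve1 in 1, so those 3 fall outside the rule for named genes and were picked out after their values were seen. Among gated cells no larger than the section's median cell (517, 699 and 120 in stroma), Cd163 gave 2.75 (edgeR adjusted p = 0.0465) and Ccl8 1.47 (0.0482), while Folr2 gave 0.76 (0.202) and Lyve1 0.58 (0.307). Without tumour 1, Ccl8 gave 2.75 (0.0969) and Lyve1 2.04 (0.0554).

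**Figure D3:**
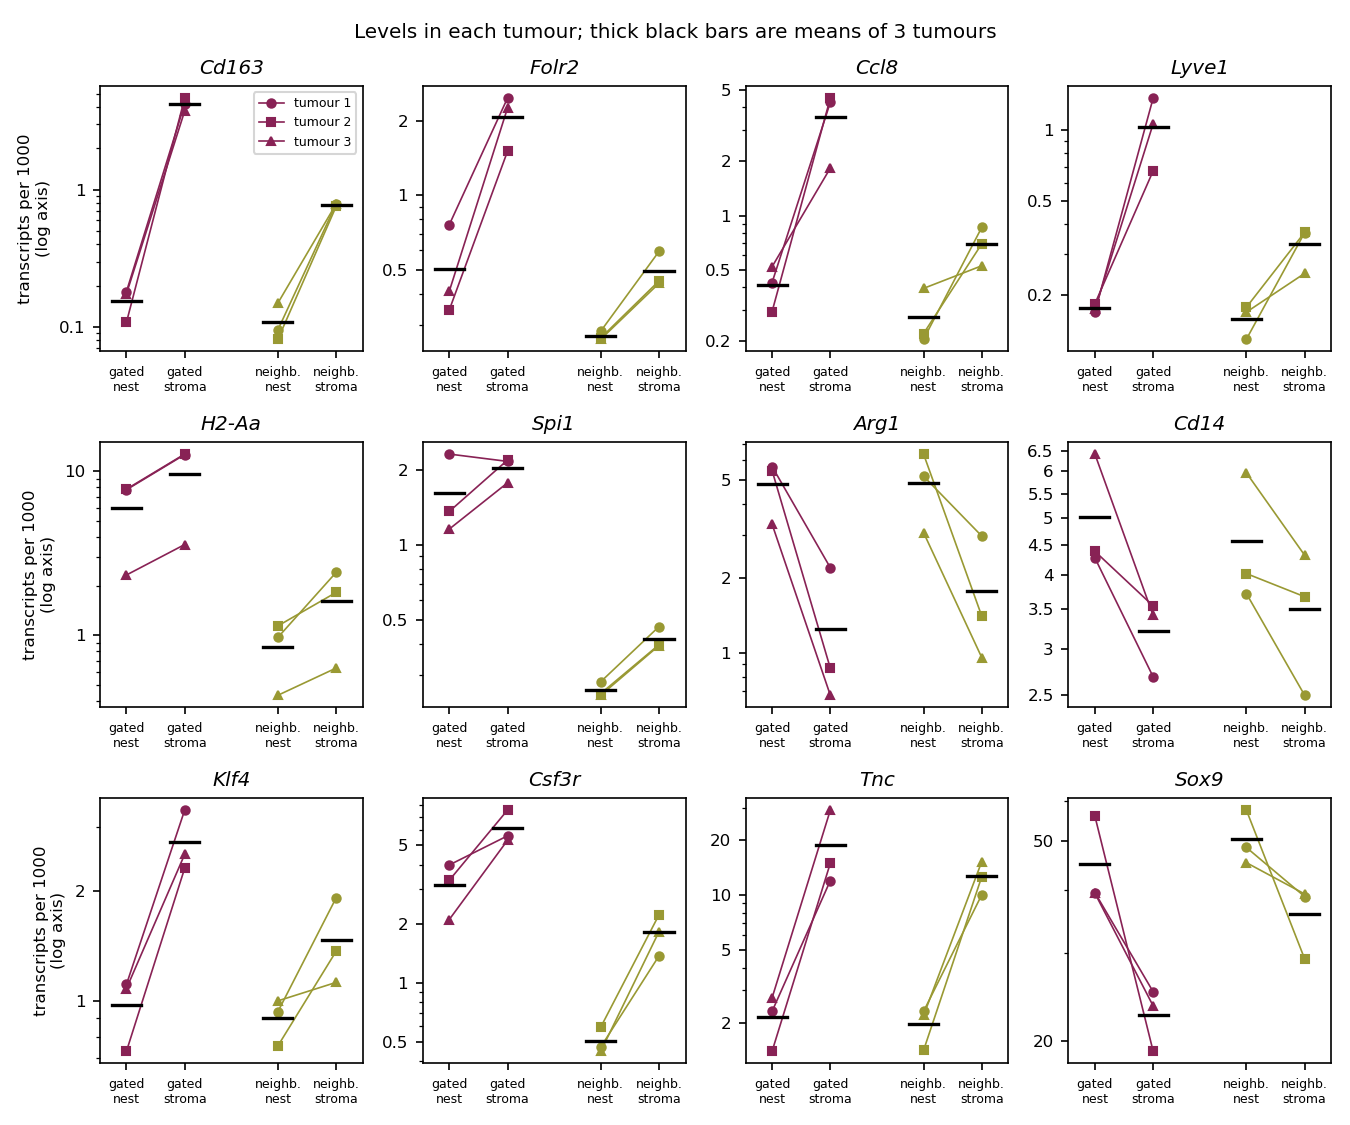
Level per 1000 panel transcripts, on a log axis, of 12 genes in gated cells and their neighbours, in nest and stroma; lines join the 2 arms of a tumour and black bars are means of 3. Cd163 rose from 0.155 to 4.20 in gated cells and from 0.109 to 0.778 in neighbours, whereas Tnc rose and Sox9 fell in both.

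The resident-type transcripts lay in a minority of the stromal macrophages. At least 2 transcripts of the 4 genes were found in 14.6%, 15.6% and 13.2% of gated stroma cells and in 2.33%, 1.92% and 2.57% of gated nest cells. Neighbours reached 3.12%, 2.90% and 2.19% in stroma and 0.399%, 0.876% and 1.18% in nests. Thinned to 50 transcripts per cell, 16.3% ± 1.2 of gated stroma cells had any of the 4, against 5.86% ± 1.06 in nests (SD, n = 3), and neighbours 6.37% ± 0.13 and 3.89% ± 0.66. Wilson 95% intervals of these unthinned shares reached at most 2.69 points from the share, and cover counting error only.

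Stromal cells with at least 2 resident-type transcripts differed from those with none in the genes of the gate itself. Adgre1 stood at 9.10, 8.22 and 7.11 per 1000 in the former and 3.78, 4.63 and 3.13 in the latter in tumours 1, 2 and 3. Cx3cr1 ran the other way, at 9.47, 16.9 and 11.3 against 20.9, 23.6 and 22.6. Klf4 stood at 9.85, 5.55 and 7.54 against 1.81, 1.45 and 1.34, and Arg1 at 0.619, 0.306 and 0.218 against 2.54, 1.05 and 0.938. The former were also larger (median volumes of 1196, 1118 and 1367 µm3 against 740, 812 and 838) and held more of the fibroblast gene Pi16, at 3.55, 8.24 and 3.48 against 1.87, 3.30 and 2.56. The former number 352, 409 and 94 cells, with medians of 188.5, 163 and 145 transcripts against 131, 114 and 114 in the latter. They were picked by their resident-type transcripts, so no test was made. A gate of 2 transcripts is a smaller share of a cell with more transcripts, so a lower Cx3cr1 level cannot be told apart from depth. In nests Cx3cr1 was lower in such cells too, at 19.1, 13.1 and 7.77 against 22.9, 17.2 and 15.2 in tumours 1, 2 and 3. Over all gated cells, Adgre1 without Cx3cr1 made up 9.30%, 6.77% and 5.49% in stroma and 1.75%, 0.87% and 2.57% in nests. Cx3cr1 without Adgre1 made up 57.0%, 57.2% and 68.3% in stroma and 65.6%, 73.8% and 73.7% in nests. Most gated cells thus held no Adgre1 transcript. Exactly 2 gate transcripts were held by 52.3%, 54.7% and 70.1% of gated cells in stroma and 52.9%, 53.5% and 70.8% in nests.

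General myeloid genes were compared next. Spi1 had 2.16, 2.19 and 1.78 in stroma and 2.32, 1.36 and 1.16 in nests (0.21 ± 0.27, edgeR adjusted p = 0.542). The arms overlapped. None of the 10 other myeloid genes passed (0 of 10, against 49.8% of all genes tested in either direction), with a median of 0.22. Ccr2, the monocyte chemokine receptor, gave 0.66 ± 0.27 (edgeR adjusted p = 0.0533).

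Of the 2 class II genes, H2-Aa had levels of 12.6, 12.7 and 3.58 in stromal and 7.72, 7.78 and 2.33 in nest macrophages. Stroma was higher in each tumour, but tumour 3 lay below both other tumours in either arm. The difference of 0.49 ± 0.21 did not pass (edgeR adjusted p = 0.0575), nor did the 0.63 ± 0.23 of the neighbours (edgeR adjusted p = 0.0762). It passed under 4 of 22 alternatives and turned to -0.10 among gated cells no larger than the median. H2-Eb1, a chain of another class II molecule, rose by 0.71 ± 0.26 (edgeR adjusted p = 0.0280) and exceeded the highest blank in 1 tumour only, and neighbours rose by 0.43 ± 0.12 (edgeR adjusted p = 0.0385). The interleukin-4 receptor gene Il4ra rose from 1.72 ± 0.50 to 4.70 ± 1.03 (1.27 ± 0.27, edgeR adjusted p = 0.000748). Neighbours gave 0.64 ± 0.17 for Il4ra, and without tumour 2 the gated cells gave 1.12 (edgeR adjusted p = 0.0959). Of the other alternative-activation genes, Il10 gave -0.39 and Tgfb1 0.02, neither past the threshold, and Arg1, described next, was lower (-2.28).

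Arg1, which breaks down arginine, was the gene most reduced in stroma. Its levels were 2.21, 0.866 and 0.673 in stromal and 5.67, 5.46 and 3.31 in nest macrophages, without overlap. The log2 difference was -2.28 ± 0.30 (edgeR adjusted p = 4.48e-06). Neighbours showed a like fall of 1.78 on the log2 scale (2.96, 1.41 and 0.956 in stroma; 5.18, 6.36 and 3.06 in nests). In nests the gated cells and the cells around them thus had about the same Arg1 level. Cd14 fell from 5.03 ± 1.20 to 3.22 ± 0.46 (-0.81 ± 0.24, edgeR adjusted p = 0.00791), again with a like difference in neighbours (-0.61 ± 0.17). Cd14 did not pass without any 1 of the tumours (edgeR adjusted p = 0.0945, 0.0738 and 0.0849 without tumours 1, 2 and 3).

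The counts for the gene lists that follow stand against 29.0% higher and 20.8% lower over all 255 genes. Of 7 macrophage-list genes tested, 3 were higher (Cd163, Folr2, Ccl8) and 2 lower (Arg1, Cd14), with a median of -0.06. The pattern receptor gene Clec4e gave -0.28 and the nitric oxide synthase gene Nos2 -0.06, both not above the highest blank in any tumour. Of 8 stress and immediate early genes, 6 were lower and Klf4 alone was higher, from 0.975 ± 0.213 to 2.72 ± 0.54 (1.30 ± 0.27, edgeR adjusted p = 0.000647), and neighbours gave 0.47 ± 0.24. Klf4 gave 1.28 without tumour 1 (edgeR adjusted p = 0.0554) and 1.24 without tumour 2 (0.0635). In squares above 20% Col1a1, Klf4 stood at 8.20, 3.88 and 5.66 in gated cells of tumours 1, 2 and 3. Cells without a gate transcript in those squares had 7.27, 2.81 and 5.22, a little below the gated cells in each tumour. High Klf4 there was thus not confined to gated cells. Fos gave -0.96 and Dusp1 -0.80, and the list's median was -0.65 in gated cells and -0.56 in neighbours. Of 9 interferon genes, 4 were lower, Irf7 among them (-0.99 ± 0.23), and neighbours gave -0.83 for Irf7. The class I gene H2-K1 was lower (-1.09 ± 0.23) and Cd274, encoding PD-L1, gave 0.52. Of 15 inflammatory genes, Ccl2, Ccl4 and Ccl5 were higher and Il1a, Cd14 and Rela lower, no larger shares than over all genes, while Il1b gave 0.06. In an arm of all 3 tumours, 6 of these 15 and 4 of the 9 interferon genes exceeded the highest blank.

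Fibroblast genes were higher in stromal macrophages and in the cells around them. All 8 fibroblast genes tested were higher, with a median of 2.32, and all 8 were higher in neighbours, with a median of 2.01. The squares were chosen by Col1a1, itself a fibroblast gene, so these counts are not independent of the choice. Of the 8 genes, 3 exceeded the highest blank in an arm of all 3 tumours. Pi16, a gene of adventitial fibroblasts, rose by 3.53 ± 0.36 in gated cells and 3.22 ± 0.35 in neighbours. Tnc, encoding the matrix protein tenascin C, had levels of 12, 14.9 and 29.1 in stromal and 2.30, 1.39 and 2.73 in nest macrophages. Its neighbours had 10, 12.6 and 15.2 and 2.30, 1.41 and 2.19, so gated cells and neighbours nearly matched except in the stroma of tumour 3.

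The fibroblast matrix gene Postn (2.62), the protease gene Mmp3 (2.52), the monocyte chemokine gene Ccl2 (2.51), the matrix gene Sparc (2.33), the pericyte receptor gene Pdgfrb (2.22) and Dkk3 (2.19) were further members of the 10 largest increases among genes that exceeded the highest blank in an arm of all 3 tumours. Neighbours gave 2.34, 1.89, 2.18, 1.96, 1.91 and 1.71 for them in that order, each below the value in gated cells. Ccl2 was led by tumour 3, at 6.05 against 1.42 and 1.86 in tumours 1 and 2. Dkk3 gave 2.32 without tumour 1 (edgeR adjusted p = 0.0784).

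The 10 largest decreases, chosen in the same way, held 9 genes besides Arg1. The secreted chaperone gene Clu (-1.61), Bglap3 (-1.58), the Notch target Hey1 (-1.37), the early-response receptor gene Nr4a1 (-1.36), the polarity gene Crb3 (-1.31), the laminin gene Lama5 (-1.29), the tight junction gene Cldn4 (-1.25), the Hippo pathway factor Tead2 (-1.22) and the stress factor Atf3 (-1.19) followed Arg1. Neighbours gave -1.16, -1.02, -0.93, -0.97, -0.82, -1.01, -1.0, -0.79 and -1.28 in that order. Of these 9, Atf3 alone had the larger value in the neighbours. Without tumour 2, Bglap3, Hey1, Nr4a1, Crb3, Lama5, Tead2 and Atf3 no longer passed (edgeR adjusted p = 0.0635 to 0.105), and Atf3 did not pass without tumour 1 either (0.0679). Of 13 epithelial genes, 5 were lower, including the ductal factor Sox9 (-1.17) and the luminal factor Gata3 (-0.94), and 4 were higher, including the basal keratins Krt5 (0.89) and Krt14 (0.78).

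Markers of other cell types were counted against the same shares of 29.0% higher and 20.8% lower. Both endothelial genes were higher in gated stroma cells, Pecam1 by 1.09 and Cdh5 by 1.25, and in neighbours by 1.52 and 1.40. Neither endothelial gene exceeded the highest blank in an arm of all 3 tumours. Of 14 T or natural killer cell genes, Cd3g (2.88), Ctla4 (2.61), Prf1 (2.42) and Lag3 (0.86) were higher and Tigit (-0.45) lower, shares no larger than over all genes. Only 1 of the 14 exceeded the highest blank in an arm of all 3 tumours. That list summed to 8.74 to 10.4 per 1000 in gated stroma cells and 3.98 to 6.16 in gated nest cells, against 5.11 to 6.05 and 2.6 to 3.08 in neighbours. Ccr7, the migratory dendritic cell receptor gene, rose by 2.67 in gated cells and 2.20 in neighbours without exceeding the highest blank. The neutrophil receptor gene Csf3r rose from 3.13 ± 0.95 to 6.16 ± 1.23 (0.82 ± 0.23, edgeR adjusted p = 0.00750), with 1.6 ± 0.18 in neighbours. The other genes of the neutrophil list, S100a8 and S100a9, gave 0.41 and -0.12. Csf3r did not pass without tumour 2 (0.75) or tumour 3 (0.66). No listed marker on the panel was at 0 in gated cells, the panel holds none of the B cell and mast cell lists, and the part of these cell types in the differences was not tested.

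**Figure D4:**
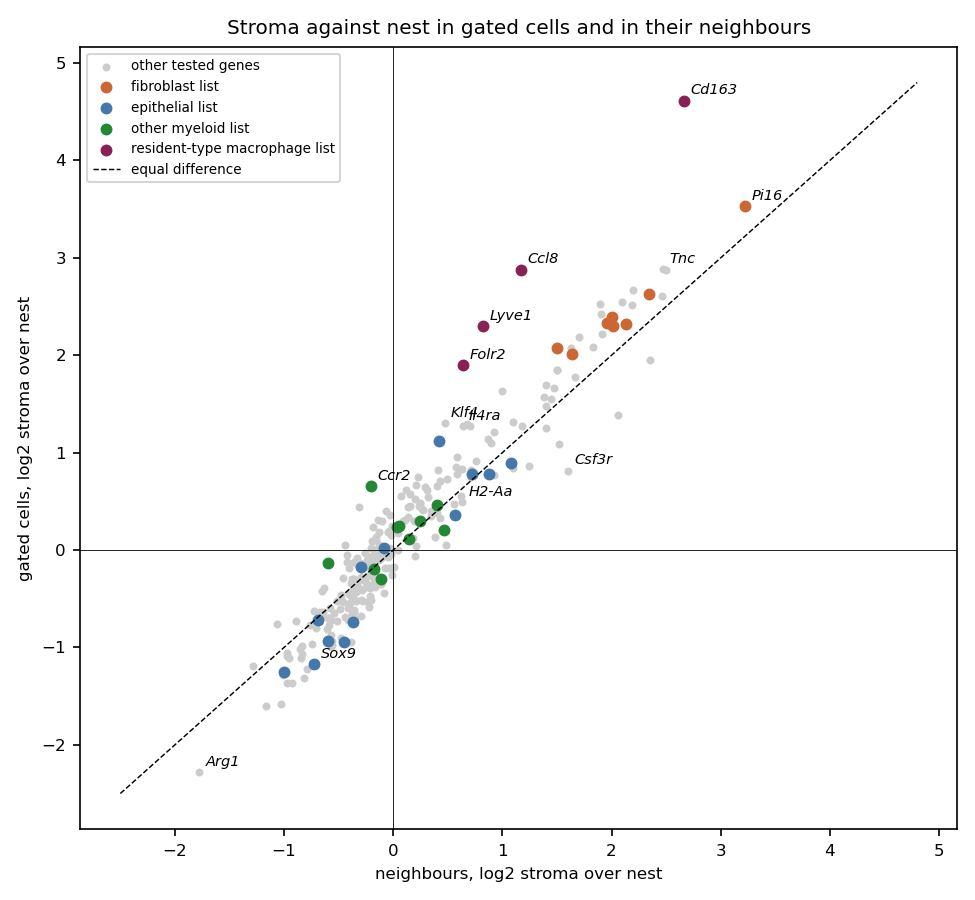
Log2 difference between stroma and nest of each of 255 genes in neighbours (x axis) and in gated cells (y axis). Most genes lie along the dashed line of equal difference, with fibroblast genes at the upper right and several epithelial genes at the lower left; the 4 resident-type genes lie above the line, with Cd163 at 4.61 against 2.67.

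The neighbours alone gave 63 genes higher in stroma (24.7%) and 43 lower (16.9%). The 127 genes called in gated cells had a median absolute log2 difference of 1.02 there and 0.82 in neighbours. Both comparisons rest on the same sections. Whether the arms differed more in gated cells than in neighbours was tested as a difference of differences over 12 sums. That fit gave each tumour and cell class its own intercept and used 1 arm term for all tumours. It thus did not pair the gated and neighbour sums of the same tumour and arm. No gene passed (0 of 255, 0%), with 12 at an unadjusted p under 0.05 in edgeR. Cd163 came nearest, with an excess of 1.89 ± 0.32 (SE) on the log2 scale (edgeR adjusted p = 0.113), followed by Folr2 (1.19 ± 0.26, adjusted p = 0.243), Lyve1 (1.41 ± 0.37, adjusted p = 0.331), Il1a (-0.63), Csf3r (-0.85 ± 0.29), Ccl8 (1.65 ± 0.59, adjusted p = 0.806) and Klf4 (0.77 ± 0.28, adjusted p = 0.806).

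The outcome of that test depended on its form. DESeq2 called 3 genes, Cd163 (1.9), Folr2 (1.19) and Lyve1 (1.42). With equal numbers of gated cells per arm in each 500 µm tile, edgeR called Cd163 (2.25, adjusted p = 0.0157), Ccl8 (1.97, adjusted p = 0.0157) and Folr2 (1.34, adjusted p = 0.0289). With 1 block per tumour and arm, which pairs those sums, 15 genes had a higher (5.88%) and 29 a lower (11.4%) difference in gated cells. That form was added after seeing the data. Cd163, Ccl8, Lyve1, Folr2, Ccr2 and Klf4 led the higher ones in size. Csf3r, Fn1, Il1a, Bglap3, Arg1 and epithelial genes such as Gata3 and Sox9 were among the lower ones. Tnc, Sparc, Dkk3, Dpt and Mmp3 were among the 15 higher ones too, with excesses of 0.31 to 0.57. The excess of Cd163 ranged from 1.52 to 2.29 over its 12 alternatives.

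Epithelial and fibroblast genes were compared between gated cells and the cells beside them. In nests the median ratio of gated to neighbour level over 11 or 12 epithelial genes was 0.884, 0.973 and 0.989 in tumours 1, 2 and 3. In stroma it was 0.783, 0.825 and 0.732 over 8 to 11 genes. Fibroblast genes had median ratios of 1.30, 1.36 and 1.38 in stroma and 1.22, 1.0 and 1.11 in nests. Single epithelial genes ranged from 0.6 to 2.19 times the neighbours' level and fibroblast genes from 0.865 to 1.79. Whether such transcripts came from the cells beside a gated cell was not tested. At least 1 Col1a1 transcript was present in 91.6%, 96.2% and 95.9% of gated stroma cells and 50.4%, 50.3% and 48.1% of gated nest cells. Col1a1 itself stood at 235, 304 and 405 per 1000 in gated stroma cells, against 167, 231 and 253 in their neighbours.

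Subtracting the neighbours' level times this median ratio (0.981 to 1.29 over both lists) left 3.29, 3.74 and 2.73 per 1000 of Cd163 in stroma and 0.077, 0.028 and 0.025 in nests. Ccl8 kept 3.25, 3.66 and 1.16 in stroma and 0.201, 0.076 and 0.127 in nests. H2-Aa kept 9.78, 10.6 and 2.76 in stroma and 6.66, 6.66 and 1.9 in nests. Arg1 kept at most 0.258 in nests and fell below 0 in stroma, and Tnc kept -0.198 to 0.549 in nests and 0.124, -0.159 and 9.43 in stroma. The subtraction thus left resident-type and class II transcripts in every stroma, but nearly no Arg1 anywhere.

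Among the 25% of gated cells per tumour and arm with the lowest share of fibroblast and epithelial transcripts (605, 655 and 178 in stroma; 1250, 1754 and 624 in nests), 7 of 225 genes were higher (3.11%) and 2 lower (0.889%). This split was chosen after seeing the data. The 7 were Cd163 (5.0), Ccl8 (3.46), Lyve1 (2.93), Folr2 (2.08), Pdgfrb (1.66), Tnc (1.65) and Klf4 (1.41), and the 2 were Arg1 (-1.63) and Gzmb (-1.77). Mmp3 (0.35), Ccl2 (0.47) and Dkk3 (0.58) did not pass there, and Csf3r gave -0.14.

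**Figure D5:**
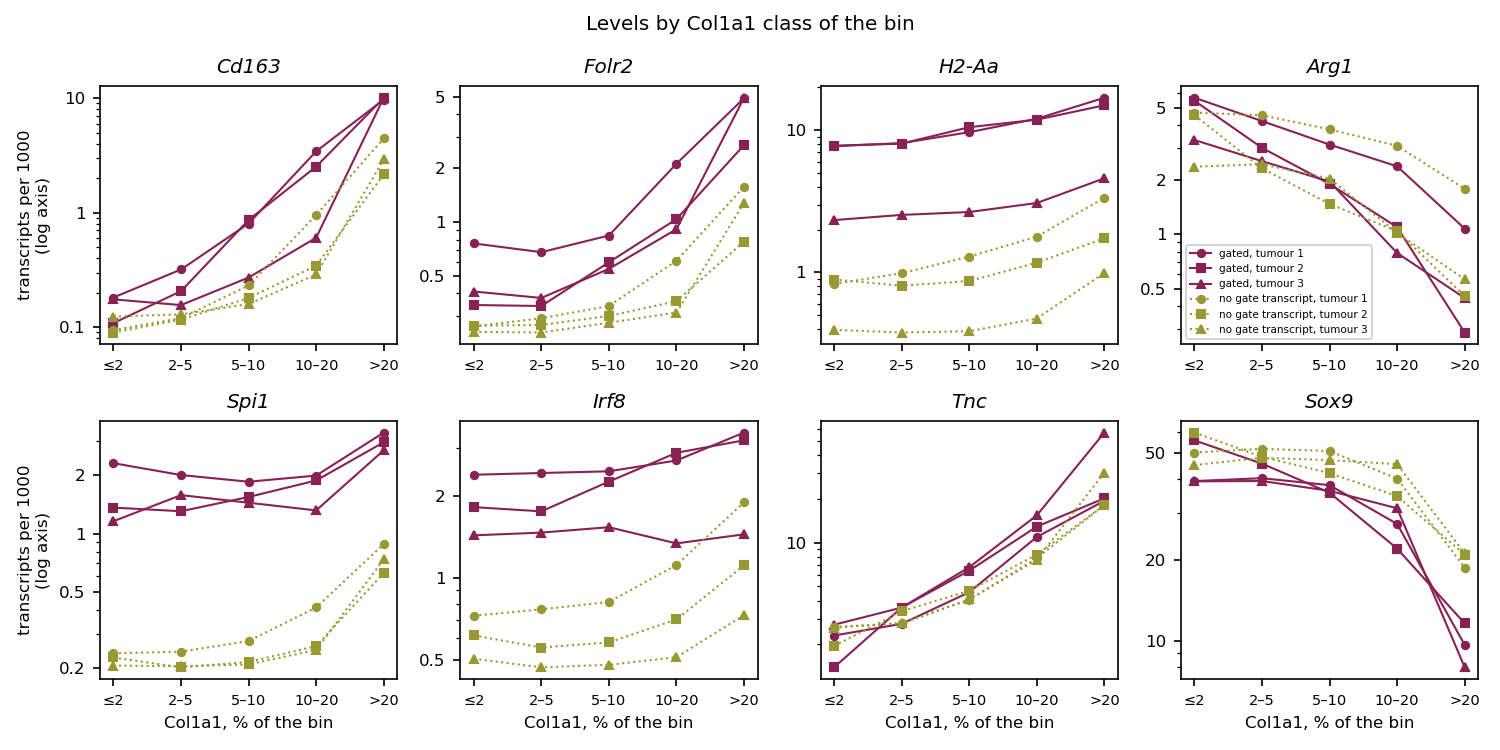
Level per 1000 panel transcripts, on a log axis, of 8 genes by the Col1a1 share of the square in percent, in gated cells (solid) and cells without a gate transcript (dotted) of each tumour. Cd163 reached 9.72, 10.1 and 10.1 in gated cells above 20%, while Spi1 stayed between 1.16 and 2.32 in the first 4 classes.

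Along 5 classes of Col1a1 share, Cd163 in gated cells of tumour 1 stood at 0.181, 0.319, 0.804, 3.44 and 9.72 from the lowest class to the highest. Tumour 2 had 0.108, 0.206, 0.864, 2.53 and 10.1, and tumour 3 had 0.175, 0.156, 0.271, 0.604 and 10.1. Most of the increase in tumour 3 thus lay in squares above 20% Col1a1, which held 233 of its gated cells (319 and 793 in tumours 1 and 2). Cells without a gate transcript reached 4.46, 2.16 and 2.92 there. Arg1 in gated cells fell from 5.67 to 1.07, from 5.46 to 0.286 and from 3.31 to 0.444 between the end classes. Spi1 stayed between 1.16 and 2.32 in the first 4 classes and stood at 3.34, 2.97 and 2.70 in the highest. Sox9 in gated cells dropped to 9.65, 11.6 and 7.96 above 20%.

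Members just inside and just outside the thresholds were compared without a test. Gated cells in squares of 8 to 10% Col1a1 had Cd163 levels of 1.53, 1.28 and 0.299, and those of 10 to 12% had 0.941, 1.72 and 0.365. In squares of 1.5 to 2% the levels were 0.189, 0.127 and 0.138, and in those of 2 to 2.5% 0.194, 0.180 and 0.142. Stroma cells with exactly 1 gate transcript had Cd163 at 3.36, 2.08 and 2.0, and those with exactly 2 had 5.40, 3.95 and 2.98. Nest cells with exactly 2 had H2-Aa at 4.91, 4.06 and 1.44 and Spi1 at 1.38, 0.731 and 0.758. All gated nest cells had 7.72, 7.78 and 2.33 of H2-Aa and 2.32, 1.36 and 1.16 of Spi1. Sox9 stood at 42.9, 58.1 and 40.9 in nest cells with exactly 2, against 50.4, 59.9 and 45.3 in nest cells without a gate transcript.

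Gated cells made up 5.42%, 3.34% and 1.18% of stroma cells and 3.24%, 4.16% and 0.754% of nest cells in tumours 1, 2 and 3. Stroma held the larger share in tumours 1 and 3 and the smaller in tumour 2, with log2 ratios of 0.74, -0.32 and 0.65 (mean 0.36 ± 0.59 SD). The exact two-sided sign-flip test gave p = 0.5, and 3 tumours cannot go below 0.25. Thinned to 50 transcripts per cell, the shares were 2.06%, 1.35% and 0.452% in stroma and 1.44%, 1.37% and 0.235% in nests. The gate reads Adgre1 and Cx3cr1 of these same cells, so a different share can also be a different level of those genes. Adgre1 stood at 4.81, 5.28 and 3.71 per 1000 in gated stroma cells and 3.67, 1.77 and 1.89 in nests, and Cx3cr1 at 18.3, 21.3 and 19.0 and 22.7, 16.4 and 14.2.

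Blank codes and single tumours limit the counts of called genes. Of the 255 genes, 121 exceeded the highest blank in an arm of all 3 tumours, and of these 18 were higher and 43 lower. With the 27 blanks added to the fit, 6 blanks were called higher and 1 lower, with log2 differences from -1.13 to 1.46, and 45 called genes lay beyond that range, Cd163, Ccl8, Lyve1, Folr2 and Arg1 among them. Without tumour 1, 31 genes were higher and 14 lower, without tumour 2 41 and 7, and without tumour 3 66 and 35. Without TMM factors the median gene stood at 0.17 instead of -0.02, with 82 genes higher and 36 lower. Squares at least 300 µm inside the tissue kept 1441, 1984 and 398 of the 2419, 2616 and 710 gated stroma cells. Of the 4981, 7015 and 2494 gated nest cells they kept 4481, 6119 and 2367. The gated cells kept gave 48 genes higher and 15 lower, with Cd163 at 4.21.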

How the data were processed

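Each deposited table holds, for every segmented cell, the count of each gene's transcripts, not normalized, per the file headers. The deposited metadata give cell volume (here as a signal value) and cell centres, read as µm3 and µm, units the headers do not state. For cell segmentation and decoding, the method is not stated in these sources; the submitters' processing notes name Scanpy 1.9.3. The cells, arms and gene lists were chosen with earlier results of these data known. Counts were summed per tumour, arm and cell class and tested with R 4.3.3 and edgeR 4.0.16: filterByExpr, TMM, quasi-likelihood F-test, tumour as block because both arms lie in 1 section, and Benjamini-Hochberg adjustment over 255 genes at 0.05. The script was tested on simulated data. Squares used all segmented cells. No doublet caller was run. Volume limits and DESeq2 1.42.0 served as alternatives. Genes were named as the 10 largest called differences each way with 1 sign in 3 tumours and a sum above the highest blank, and as members of the macrophage, resident-type and class II lists above it; members of other lists were named where called. The edgeR p-values of arm differences measure how the difference between arms varied over 3 tumours, with variance estimates that draw on all genes. Those of the main difference of differences do not pair gated cells and neighbours of the same tumour and arm. Some genes that these rules would name are not reported here.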

Additional observations from a re-analysis of the deposited data

Results flagged for a closer look

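With equal numbers of gated cells per arm in each 500 µm tile (934, 488 and 273 per arm), 3 genes differed more between stroma and nest in gated cells than in their neighbours by a test of that difference. Cd163 gave 2.25, Ccl8 1.97 and Folr2 1.34 on the log2 scale (edgeR adjusted p = 0.0157, 0.0157 and 0.0289), higher in gated cells in each case. With all gated cells the same test gave 1.89, 1.65 and 1.19, and these did not pass (edgeR adjusted p = 0.113, 0.806 and 0.243).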

How the results depend on the processing

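Of the genes higher and lower in stromal gated cells (74 and 53), gated cells up to the median volume gave 30 and 6, squares at least 300 µm inside 48 and 15, and the 25% of cells with the lowest fibroblast and epithelial share 7 and 2, where Csf3r turned to -0.14, Spi1 to -0.41 and Irf8 to -0.41. H2-Aa turned to -0.10 and Spi1 to -0.18 under the volume limit, Spi1 to -0.016 and Irf8 to -0.039 with a gate of 4, and Irf8 to -0.025 per cell. Leaving out 1 tumour gave -0.074 to 0.28 for Irf8. Without the tumour as replicate block 52 were higher and 25 lower. Leaving out 1 tumour gave 31 to 66 higher and 7 to 35 lower. The difference of differences called 0 higher and 0 lower; DESeq2 called 3 higher and 0 lower, equal numbers per tile 3 and 0, those 25% of cells 1 and 4, and the tumour by arm block 15 and 29, while leaving out 1 tumour gave 0 to 0. Neighbours (63 higher, 43 lower) gave 13 lower by library size alone, 10 without the block, and 52 to 68 higher and 15 to 43 lower without 1 tumour. The mean log2 ratio of shares lay between 0.09 and 0.48 over its alternatives, and without 1 tumour between 0.17 and 0.69. Of 656 values of named genes in gated cells under alternatives, 590 kept their direction and side of the threshold, 53 lost significance, 4 gained it and 9 changed sign. Cd163, Tnc and Pdgfrb passed under all 22 alternatives run for each. The planned set of cells without a fibroblast transcript and with at most 5% epithelial ones was not run, because 17, 11 and 2 stroma cells remained. Depth limits low genes most: 134 of 255 tested genes did not exceed the highest blank in an arm of all 3 tumours.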
